A study of Mus musculus with 8 samples.

Results

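Ribosomal protein genes were described in 2 readings, 1 on each DNA strand, in a mouse ovarian cancer cell line treated with inhibitors of PARP and of EHMT1 and EHMT2. The genes were the 82 rows of the count table whose symbol is Rpl or Rps plus a number, with letters such as a, x or l allowed and with -ps pseudogenes and the Rps6k kinases left out. The second reading was made of the 18 rows whose exons overlap at least 50 bases of the exons of such a gene on the opposite strand. Together they were 100 of the 54146 rows of the table. The row of a ribosomal protein gene itself is called its gene row, and the row on the other strand an opposite row. Of the gene rows, 50 belong to the large subunit (Rpl) and 32 to the small subunit (Rps), 78 are annotated as protein coding, and 16 have an opposite row. The rule leaves out other proteins of the ribosome with different names, such as Rplp0, Rpsa, Fau and Rps3a1.

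ID8 is a line grown from mouse ovarian surface epithelium, and the cells used here are its olaparib-resistant form, a genotype shared by every library. Cells were treated for 72 hours with the combination of olaparib and EZM8266, with EZM8266 alone, with olaparib alone or with the solvent DMSO, in 2 libraries per group. Olaparib inhibits PARP enzymes, which mark DNA breaks, and EZM8266 is named as an EHMT1/2 inhibitor, EHMT1 and EHMT2 being enzymes that methylate histone H3. Doses, and whether the cells are 1 clone, are not given in the sources used here, nor is it stated that the 2 replicates of a group came from separate cultures. The p-values therefore measure the spread among libraries, part of which may be technical. The treatment label of combination replicate 2 names EZM8267, and its title, which names the combination, was followed.

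A ribosome joins a small subunit, which reads the messenger RNA, to a large subunit, which forms peptide bonds, and each holds ribosomal RNA with a large set of small, mostly basic proteins. The genes of these proteins are among the most transcribed of a growing cell, and their messenger RNAs begin with a run of pyrimidines, the terminal oligopyrimidine tract, through which mTOR signalling sets their translation. Many of them have processed pseudogenes nearly identical in sequence.

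The strand of the counting decides what each reading holds. Fragments were counted where their first read lay on the strand of the gene, while in libraries of the kit used here the first read has the sequence complementary to the transcript. A gene row therefore holds fragments from the strand opposite to the ribosomal protein messenger RNA, plus any that leak through the strand marking. An opposite row holds fragments on the strand of the messenger RNA that touch its exons, inside or outside the overlap. It also holds any that leak from transcripts of its own gene. The row of the noncoding RNA Rmrp and the row of Ccdc107, which overlaps it on the other strand by 124 bases, gave a measure of the leakage. The Rmrp row held 1.44% and 1.21% with the combination, 1.55% and 1.04% with EZM8266, 1.53% and 1.42% with olaparib, against 1.24% and 1.68% with DMSO, as a percent of both rows. EZM8266 replicate 2 had the lowest leakage and DMSO replicate 2 the highest, and the groups overlapped. The libraries held 973382 to 1680974 counts, from 4.54% to 5.40% of their fragments, and a floor of 3 counts lay at 1.78 to 3.08 CPM, which are counts scaled to 1 common library total.

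The labelled cell type was covered thinly on the strand counted. All 10 listed markers of ovarian surface epithelium had counts on their own rows, summing to 61.6 to 123 CPM with EZM8266 and 93.8 to 122 CPM without it, but Krt7 had 4 counts and Cdh1 had 1 over all libraries. The leukocyte genes Cd3e, Lyz2 and Adgre1 were at 0, and the 5 leukocyte markers summed to at most 2.48 CPM. The 3 endothelial ones summed to 0.618 to 4.64 CPM. The 3 fibroblast ones, nearly all from Col1a1, summed to 46.2 to 155 CPM with EZM8266 and 104 to 142 CPM without it. These rows do not read the strand of the messenger RNA, so a 0 does not show that a gene is silent. The 2 rows opposite epithelium markers summed to 186 to 268 CPM, the 2 opposite fibroblast markers to at most 1.03 CPM, and the 1 opposite a leukocyte marker was at 0. In DMSO replicate 1 and olaparib replicate 2 the row of the predicted gene Gm10800 held 23746 and 22517 counts, against 1182 to 4277 in the other libraries.

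The opposite rows with the most counts, Tlcd1 and Wdr38, overlap coding exons of Rpl23a and Rpl35, whose proteins lie at the exit of the tunnel through which the new protein leaves the large subunit. The stretches below show where the overlap lies in the coding sequence and are given in the sense of the messenger RNA, 5′ to 3′, from the GENCODE M21 annotation and transcripts of GRCm38, with the bases inside exons of the opposite row in capitals. The Rpl23a stretch (chr11:78181474-78181593, minus strand) is coding bases 210 to 329 of 468, and the Rpl35 stretch (chr2:39001620-39001720, minus strand) is 268 to 368 of 369.
Rpl23a, opposite row Tlcd1: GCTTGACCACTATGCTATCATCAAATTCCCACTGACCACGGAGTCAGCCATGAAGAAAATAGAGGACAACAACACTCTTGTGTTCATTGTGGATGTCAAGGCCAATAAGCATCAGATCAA
Rpl35, opposite row Wdr38: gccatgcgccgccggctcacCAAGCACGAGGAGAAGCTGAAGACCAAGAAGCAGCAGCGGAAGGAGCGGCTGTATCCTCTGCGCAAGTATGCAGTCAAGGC

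All 120 bases of the Rpl23a stretch lie in Tlcd1 exons, while the Rpl35 stretch begins with bases outside Wdr38. Over the whole coding sequence of the principal transcript, Tlcd1 exons cover 259 of 468 bases of Rpl23a, and Wdr38 exons 105 of 369 of Rpl35.

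Fragments on the strand of the ribosomal protein messenger RNAs were concentrated in few opposite rows. The 18 opposite rows held 228999 counts over the 8 libraries, of which the Tlcd1 row alone held 46.5% and the 3 rows with the most counts together 84.2%. The 82 gene rows held 26459 counts, with 18.1% in the top 3. Levels below are CPM scaled by the trimmed mean of M values (TMM), and are divided by exon length in kb where genes are compared.

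Tlcd1, a membrane protein gene known to affect the lipid makeup of membranes, is the row opposite Rpl23a (chromosome 11, 78176711 to 78181909, plus strand, mm10). Its row had 11399.8 and 10497 CPM with the combination, 10422 and 12092 with EZM8266, 11296 and 11728 with olaparib, against 11964 and 10213 with DMSO. The values with each treatment overlap those with DMSO, and no group stands apart. The Rpl23a gene row (chromosome 11, 78180932 to 78183584, minus strand) had 66.5 and 86.7 CPM with the combination, 81.0 and 56.7 with EZM8266, 89.8 and 65.9 with olaparib, against 96.0 and 90.8 with DMSO. Every treated library lies below both DMSO libraries. The gene row held 0.715% of the counts of the pair over all libraries, and between 0.467% and 0.881% in single libraries. Tlcd1 exons also overlap Snord42a and Snord4a, small nucleolar RNAs inside the Rpl23a gene, and counts of these cannot be told apart from those of Rpl23a.

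Wdr38, a gene of the WD repeat family, spans Rpl35 (chromosome 2, 38997476 to 39006168, plus strand), and its row had 5279.9 and 5285 CPM with the combination, 4769 and 6051 with EZM8266, 5248 and 5626 with olaparib, against 5728 and 4836 with DMSO. The highest and the lowest value were both with EZM8266, so the groups overlapped. Arpc5l, a subunit of the Arp2/3 complex that nucleates actin branches, overlaps the start of Rpl35 by 62 bases only, and its row had 15.1 and 19.5 CPM with the combination, 24.2 and 20.9 with EZM8266, 24.3 and 30.9 with olaparib, against 24.5 and 24.7 with DMSO. The Rpl35 gene row (chromosome 2, 39001580 to 39005624, minus strand) had 44.3 and 22.4 CPM with the combination, 29.5 and 25.9 with EZM8266, 34.6 and 24.4 with olaparib, against 28.4 and 35.8 with DMSO. Its groups overlapped, and it held 0.577% of the counts of the 3 rows.

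Per kb of exons, the mean level was 2236 ± 147 CPM per kb (SD, n = 8) for Tlcd1 and 1864 ± 152 CPM per kb (SD, n = 8) for Wdr38. All other opposite rows named here lay below both.

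The share of the gene row ran from under 1% to nearly all counts across the 16 genes with an opposite row. It was 1.48% for Rpl15 (opposite row Nkiras1, an inhibitor of NF-kB signalling), 2.69% for Rpl30 (D730044K07Rik), 6.66% for Rpl32 (Cand2, a cullin-binding protein), 8.11% for Rpl28 (Ube2s, a ubiquitin-conjugating enzyme of mitosis) and 9.98% for Rpl31 (Tbc1d8, a protein with a Rab-binding TBC domain). It was 23.1% for Rpl5, a carrier of ribosomal RNA to the large subunit (Fam69a). In counts, the 2 readings were close to equal for Rps25 (45.5%, Trappc4 and Ccdc84), Rpl18 (48.7%, the sphingosine kinase gene Sphk2) and Rpl12 (49.3%, the ubiquitin ligase gene Lrsam1). The gene row held more than the opposite row for Rps28 (65.1%, Kank3), Rps27a (77.0%, Clhc1), Rps18 (95.5%, Vps52) and Rps10 (96.0%, Gm15420). In the last 3 the opposite row had 0 to 7 counts per library. Nkiras1 exons also overlap those of Ube2e1, a gene on the strand of Rpl15, and no base of the principal Rpl15 transcript. Counts of Rpl15 and Ube2e1 in the Nkiras1 row cannot be told apart. Where the fragments of a row lie within its exons was not measured.

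**Figure D1:**
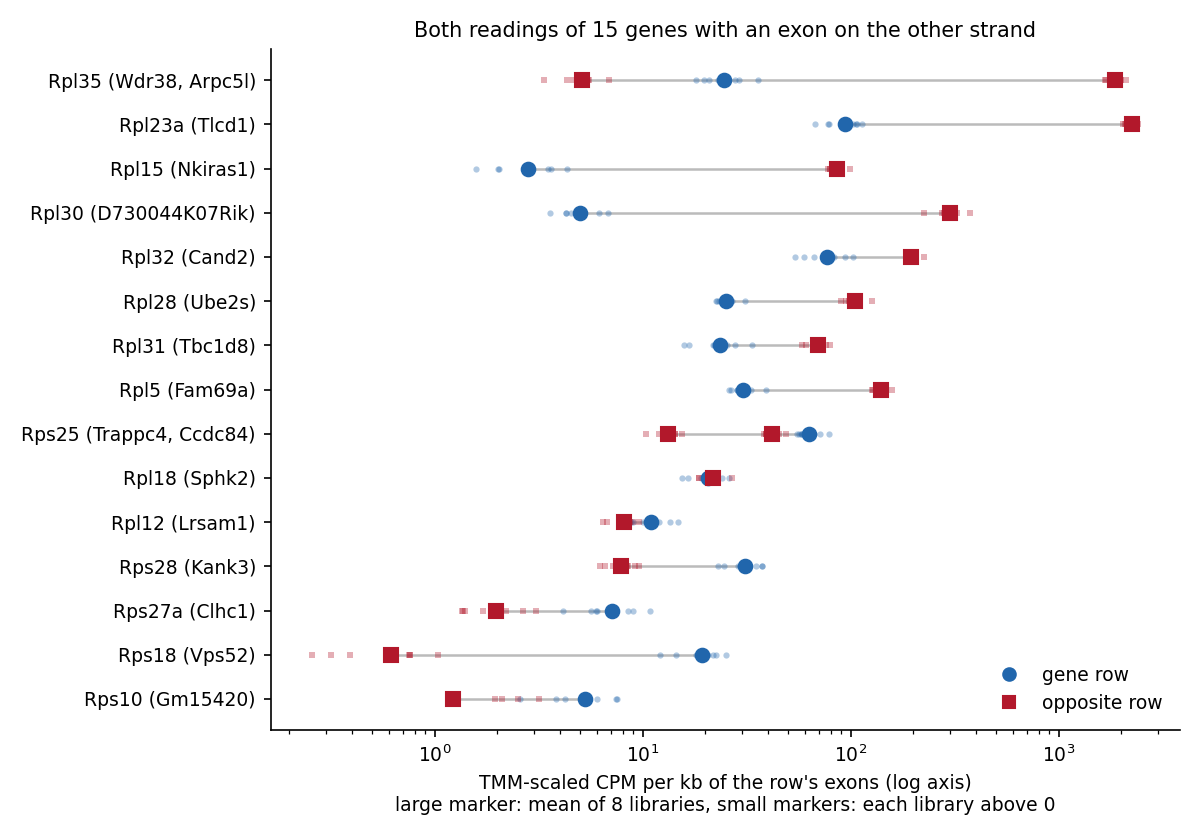
TMM-scaled CPM per kb of exons (horizontal log axis) of the gene row (blue circles) and of each opposite row (red squares) for 15 of the 16 genes with an opposite row, from the lowest share of the gene row at the top, with the mean of 8 libraries as large markers and the libraries above 0 as small ones. Wdr38 and Tlcd1 lie farthest to the right, the markers lie closest for Rpl18 and Rpl12, and for Rps18 the opposite row Vps52 lies at 0.613 CPM per kb, against 19.4 for its gene row.

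Opposite rows that overlap coding sequence of the principal transcript had the highest levels per kb of exons. These 4 rows, Tlcd1, Wdr38 and D730044K07Rik among them, had a median of 2050.3 CPM per kb (range 300.5 to 4777). D730044K07Rik, opposite Rpl30, covers 21 of 345 coding bases and had the lowest level of them. The 5 rows that overlap untranslated bases of that transcript only, Cand2, Fam69a, Ccdc84, Lrsam1 and Arpc5l, had a median of 41.96 CPM per kb (5.12 to 195). The 9 rows that overlap other annotated exons of the gene but none of that transcript had a median of 13.2 CPM per kb (0.613 to 104), with Ube2s the highest and Vps52 the lowest.

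The size of the overlap and the level did not follow 1 order. Fam69a overlaps 953 bases of the principal Rpl5 transcript, all untranslated, and had 139 CPM per kb, against 2236 CPM per kb for Tlcd1 with 310 bases. Across the 18 rows, the rank correlation of the level per kb with the bases of the principal transcript was 0.616, and with all exon overlap 0.406, over rows that share libraries and, for Rpl35 and Rps25, a gene. The 9 head-to-head rows, which meet the ribosomal protein gene at its start, had a median of 8.14 CPM per kb, and the 8 tail-to-tail rows 122 CPM per kb.

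**Figure D2:**
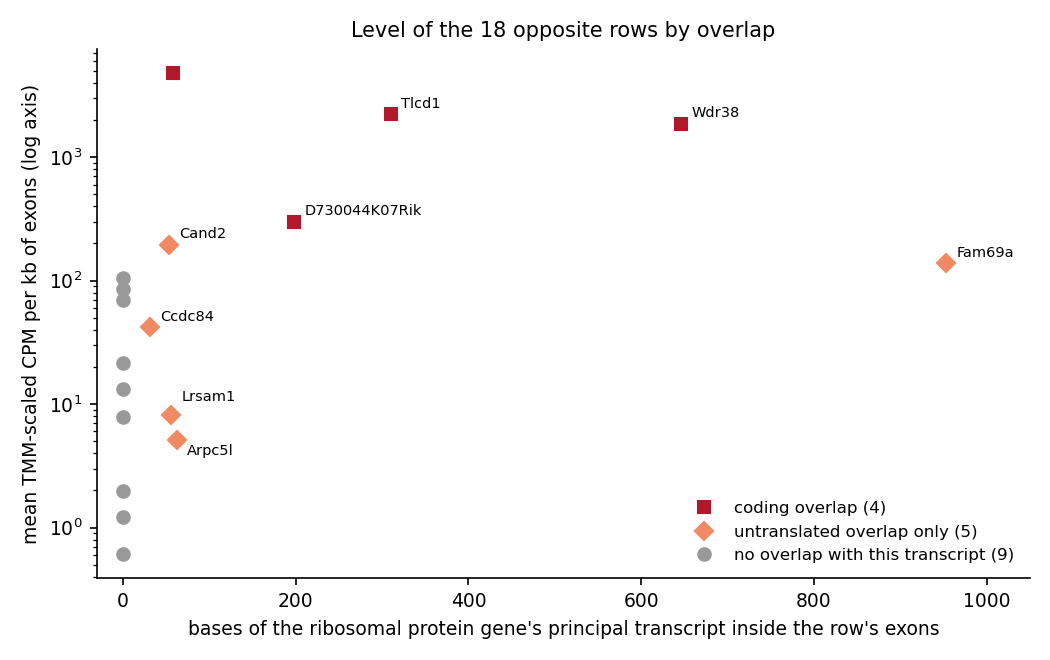
Mean TMM-scaled CPM per kb of exons (vertical log axis) of the 18 opposite rows, against the bases of the ribosomal protein gene's principal transcript that lie inside the row's exons. The 4 rows with coding overlap (red squares) reach 4777 CPM per kb, while the 9 rows with no overlap of that transcript (grey circles, at 0 bases) run from 0.613 to 104 CPM per kb.

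Gene rows were low and more even. Of the 82, 71 passed the filter on low counts, 40 had a mean of at least 20 CPM, and 2, Rpl10l and Rpl39l, were at 0 in all 8 libraries, which allows up to 3.08 CPM in the shallowest library. Most of those that did not pass are retrogenes or copies, such as Rpl3l, Rps27l and Rpl36al, and Rpl35a, of the large subunit, is among them. The median level per kb of exons was 11.7 CPM for the large subunit and 12.4 CPM for the small subunit. It was 22.0 CPM per kb for the 16 gene rows with an opposite row and 9.23 CPM per kb for the 66 without. All 16 passed the filter on low counts, against 55 of the 66. Near-identical pseudogenes can share reads with these genes, so that levels of single gene rows are uncertain. The alignment names in the file header contain the word uniq, and no option for reads of several matches was set in the counting. How reads of several matches were treated in the alignments is not given in the sources used here.

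Per kb of exons the highest gene rows were Rpl36 (123 ± 44.1 CPM per kb, SD, n = 8), named after its values were seen, then Rps26 (103 ± 30.7 CPM per kb), Rpl23a (93.5 ± 16.9 CPM per kb), Rpl32 (76.8 ± 16.6 CPM per kb) and Rpl4 (73.2 ± 18.3 CPM per kb). Neighbours in this order differ by about their SD between libraries or less. Rps25, Rpl27a and Rpl26 had 62.7, 57.3 and 58.3 CPM per kb.

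Rps25, a small subunit protein needed by some viral internal ribosome entry sites, had the most counts of any gene row (chromosome 9, 44407139 to 44410427, plus strand), with 152 and 157 CPM with the combination, 179 and 157 with EZM8266, 211 and 155 with olaparib, against 148 and 191 with DMSO. Its opposite rows Ccdc84 and Trappc4 (a subunit of a vesicle tethering complex) had 174 ± 15.6 and 32.2 ± 3.78 CPM (SD, n = 8). Rps26, a protein at the exit of the messenger RNA channel (chromosome 10, 128624534 to 128626747, minus strand), has no opposite row and had 172 and 113 CPM with the combination, 148 and 95.5 with EZM8266, 212 and 126 with olaparib, against 177 and 230.3 with DMSO. The lowest Rps26 value was in EZM8266 replicate 2 and the highest in DMSO replicate 2.

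Rpl27a (chromosome 7, 109519147 to 109522367, plus strand) had 156 and 135 CPM with the combination, 181 and 106 with EZM8266, 181 and 133 with olaparib, against 154 and 225 with DMSO. Rpl4, whose protein lines the exit tunnel (chromosome 9, 64173375 to 64178666, plus strand), had 166 and 119 CPM with the combination, 160.4 and 87.5 with EZM8266, 175 and 119 with olaparib, against 146 and 202 with DMSO. In both, EZM8266 replicate 2 was again the lowest library and DMSO replicate 2 the highest. Rpl5 (chromosome 5, 107900502 to 107909005, plus strand), whose gene row is opposite a long stretch of Fam69a, had 112 and 104 CPM with the combination, 130.1 and 124 with EZM8266, 113 and 102 with olaparib, against 112 and 153 with DMSO, with EZM8266 replicate 2 in the upper part of the range.

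A tract was found in a minority of the start regions. A stretch of 6 pyrimidines that begins within 5 bases of the start was counted as a tract, even inside a run beginning farther upstream. It was found in 27 of 73 RefSeq promoter windows of 61 ribosomal protein genes (36.99%), against 13.7% of all 32851 windows. No test was made of the difference. The starts of 3 genes that have such a stretch are shown, as 20 bases before and 20 from the start, from RefSeq on GRCm38.p6. They run 5′ to 3′ on the strand of the gene, with the stretch and the pyrimidines that follow it in capitals. For Rpl35, the pyrimidines just before the capitals belong to the same run.
Rpl35 (chr2:39005112-39005151, minus strand): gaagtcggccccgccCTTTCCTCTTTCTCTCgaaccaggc
Rpl15 (chr14:18270967-18271006, minus strand): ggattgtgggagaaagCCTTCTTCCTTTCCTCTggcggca
Rpl18 (chr7:45718051-45718090, plus strand): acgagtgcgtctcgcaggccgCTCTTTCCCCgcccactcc

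Within 250 bases before to 50 after the start, on either strand, the ETS motif CCGGAAG was in 32.9% of the windows of ribosomal protein genes, against 8.86% of all windows, and the YY1 core AAGATGG in 15.1%, against 6.34%. The TATA box TATAAA was in 8.22%, against 13.6%. A match describes the letters of the window and is not a measured binding site.

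The library with the lowest percent of its counts in gene rows had the highest percent in opposite rows. The gene rows summed to 0.250% and 0.236% with the combination, 0.298% and 0.186% with EZM8266, 0.260% and 0.235% with olaparib, against 0.273% and 0.345% with DMSO, as a percent of all counts. DMSO replicate 2 was the highest and EZM8266 replicate 2 the lowest. The means were 0.243% ± 0.00946 with the combination, 0.242% ± 0.0793 with EZM8266 and 0.248% ± 0.0174 with olaparib, against 0.309% ± 0.0506 with DMSO (SD, n = 2 each). The combination and olaparib values lie below both DMSO values, while EZM8266 overlaps DMSO.

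The opposite rows summed to 2.18% and 2.41% with the combination, 2.26% and 2.72% with EZM8266, 2.03% and 2.55% with olaparib, against 2.45% and 2.16% with DMSO. The highest library was EZM8266 replicate 2 and the lowest olaparib replicate 1, and each treatment overlaps DMSO. The means were 2.30% ± 0.168 with the combination, 2.49% ± 0.321 with EZM8266 and 2.29% ± 0.363 with olaparib, against 2.30% ± 0.206 with DMSO (SD, n = 2 each), and each difference from DMSO is smaller than the larger SD of its 2 groups. The counting error is smaller than these spreads, since the Wilson 95% intervals of EZM8266 replicate 2 run from 0.178% to 0.195% for the gene rows and from 2.68% to 2.75% for the opposite rows. Intervals and floors cover counting error only.

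In the 16 genes with both readings, the gene rows held 3.26% and 3.24% with the combination, 3.90% and 2.58% with EZM8266, 3.74% and 2.77% with olaparib, against 3.22% and 4.30% with DMSO, as a percent of both. EZM8266 replicate 2 and olaparib replicate 2 were the lowest and DMSO replicate 2 the highest, and every treatment overlaps DMSO. The 4 libraries with EZM8266 averaged 3.24% ± 0.539 and the 4 without it 3.51% ± 0.658 (SD, n = 4 each), a difference of -0.261 percentage points. No p is given for these sums, since the members were chosen with results known. The samples with EZM8266 carry label numbers 33 to 36 and those without it 41 to 44, so EZM8266 and whatever these numbers stand for cannot be told apart.

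**Figure D3:**
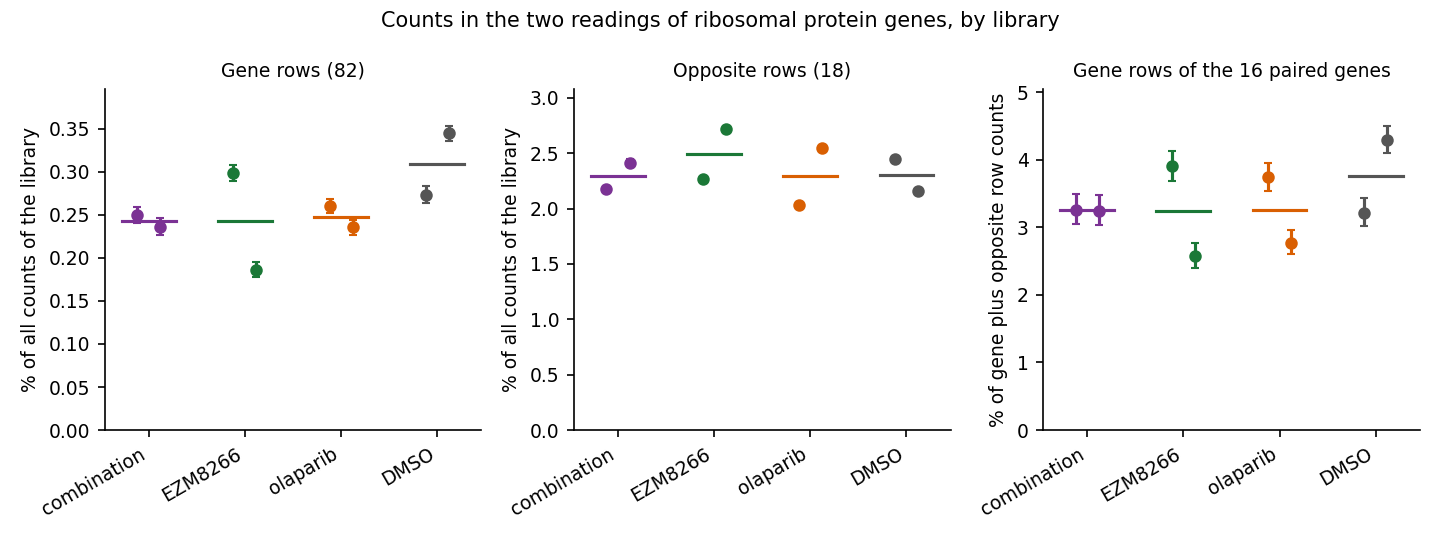
Percent of a library's counts in the 82 gene rows (left) and in the 18 opposite rows (middle), and percent of gene rows in both readings of the 16 paired genes (right), for the combination, EZM8266, olaparib and DMSO. Points are libraries with Wilson 95% intervals and lines are means of 2; the axes start at 0, and the points of EZM8266 and DMSO spread widely in the left panel (0.186% to 0.298% and 0.273% to 0.345%).

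Both readings went with the strand leakage of the library. Over the 8 libraries, the percent of counts in gene rows had Pearson r = 0.83 and Spearman rho = 0.81 with the Rmrp leakage, and the percent in opposite rows r = -0.82 and rho = -0.79. The gene row share of the 16 genes had r = 0.83 and rho = 0.90, and the 66 gene rows without an opposite exon r = 0.85 and rho = 0.86. Without the 2 libraries farthest from the median leakage, EZM8266 replicate 2 and DMSO replicate 2, r was 0.42, -0.63, 0.55 and 0.48 in the same order, closer to 0 in all 4. Without DMSO replicate 1 and olaparib replicate 2, the libraries rich in Gm10800, it was 0.92, -0.89, 0.95 and 0.95. These 4 relations are descriptions over libraries of 4 treatments, with no p. Depth differed too, from 973382 counts in EZM8266 replicate 2, with the lowest leakage, to 1680974 in DMSO replicate 2, with the highest. The parts of leakage and of depth in the differences between groups were not tested.

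**Figure D4:**
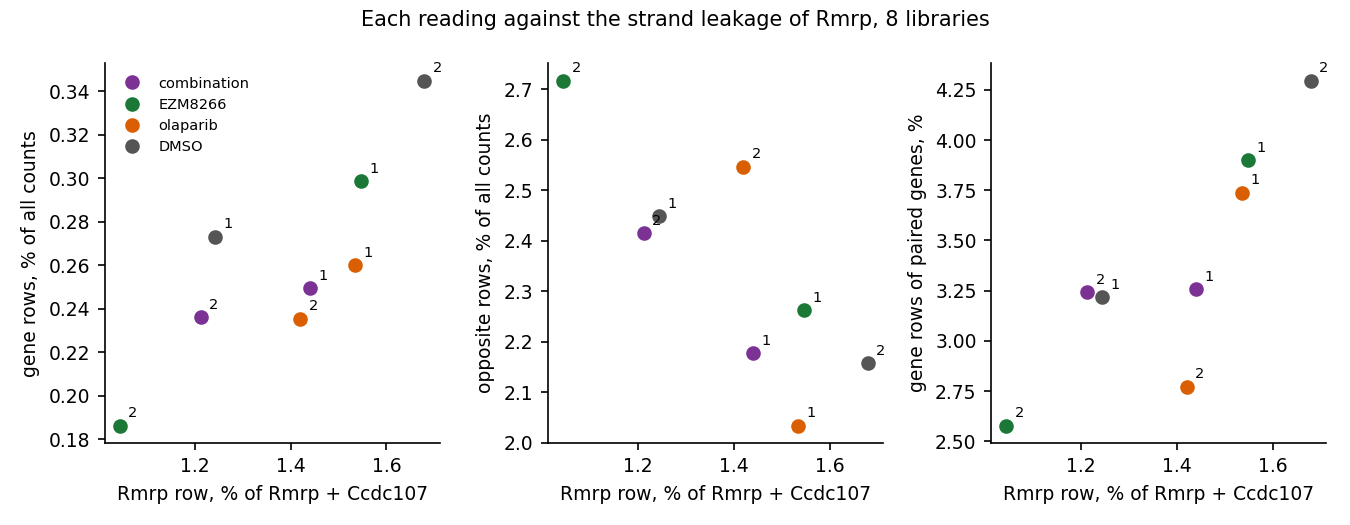
Percent of counts in gene rows (left) and in opposite rows (middle), and gene row share of the paired genes (right), against the leakage (percent of the counts of Rmrp and Ccdc107 that are in the Rmrp row). Each point is 1 of 8 libraries, coloured by group and numbered by replicate; EZM8266 replicate 2 (1.04%) and DMSO replicate 2 (1.68%) lie at the ends of the horizontal axis, which does not start at 0.

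Each treatment was compared with DMSO by edgeR's quasi-likelihood test over all tested rows, and a row was called where its p, adjusted by the Benjamini-Hochberg method, was under 0.05. No member was called in any comparison, in either reading. With the combination, 0 of 71 gene rows and 0 of 15 opposite rows were called, against 0.219% of all 6379 tested rows. With EZM8266, 0 of 71 gene rows and 0 of 15 opposite rows were called, against 0.204% of all 6379 tested rows. With olaparib, 0 of 71 gene rows and 0 of 15 opposite rows were called, against 0% of all 6379 tested rows. At an unadjusted p under 0.05 there were 6 gene rows and 1 opposite row with the combination, 11 and 0 with EZM8266 and 4 and 0 with olaparib, against 4.89%, 5.72% and 1.83% of all tested rows. DESeq2 also called no member, with 0, 5 and 1 of the members at an unadjusted p under 0.05. These counts depend on single libraries. With the combination, 7 members at an unadjusted p under 0.05 by edgeR became 1 without DMSO replicate 2, 1 without combination replicate 2, 12 without combination replicate 1, 13 when EZM8266 replicate 1 was left out and 14 when EZM8266 replicate 2 was. With EZM8266 the 11 became 35 without EZM8266 replicate 1, 4 without EZM8266 replicate 2 and 2 without DMSO replicate 2. With olaparib the 4 became 9 without olaparib replicate 1, 0 without olaparib replicate 2, 1 without DMSO replicate 2 and 0 without the libraries rich in Gm10800. In bulk RNA a lower value can come from fewer cells of a type or less of that RNA per cell, which cannot be told apart. Gene rows also hold any fragments that leak through the strand marking, whose part in the lower values was not tested.

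The gene rows lay mostly below 0 in log2 fold change, while the medians of the opposite rows lay near it. With the combination, 63 of 71 gene rows were below 0, with a median of -0.39, against 53% of all tested rows and a median of -0.02. With EZM8266, 65 of 71 were below 0, with a median of -0.48, against 52.8% and -0.02. With olaparib, 60 of 71 were below 0, with a median of -0.27, against 51.6% and -0.01. The medians of the 15 opposite rows were -0.02 with the combination, 0.04 with EZM8266 and 0.03 with olaparib. Of these rows, 8, 3 and 7 were below 0, in the same order. The comparisons share the 2 DMSO libraries and are not independent, and the median SE of a gene row was 0.39 with EZM8266.

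The medians depend on single libraries. With EZM8266 the gene row median was -1.03 without EZM8266 replicate 1, -0.15 without EZM8266 replicate 2 and -0.26 without DMSO replicate 2. With olaparib it was -0.50 without olaparib replicate 1, -0.06 without olaparib replicate 2 and -0.0045 without DMSO replicate 2. With the combination it was -0.18 without DMSO replicate 2. Without the libraries rich in Gm10800 the medians were -0.49 with the combination, -0.62 with EZM8266 and -0.22 with olaparib. Against the mean of all libraries, the median gene row stood at -0.58 on the log2 scale in EZM8266 replicate 2 and at 0.49 in DMSO replicate 2, the libraries with the lowest and the highest Rmrp leakage, and between -0.21 and 0.25 in the other 6. The median opposite row stood at 0.18 in EZM8266 replicate 2 and at -0.08 in DMSO replicate 2.

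**Figure D5:**
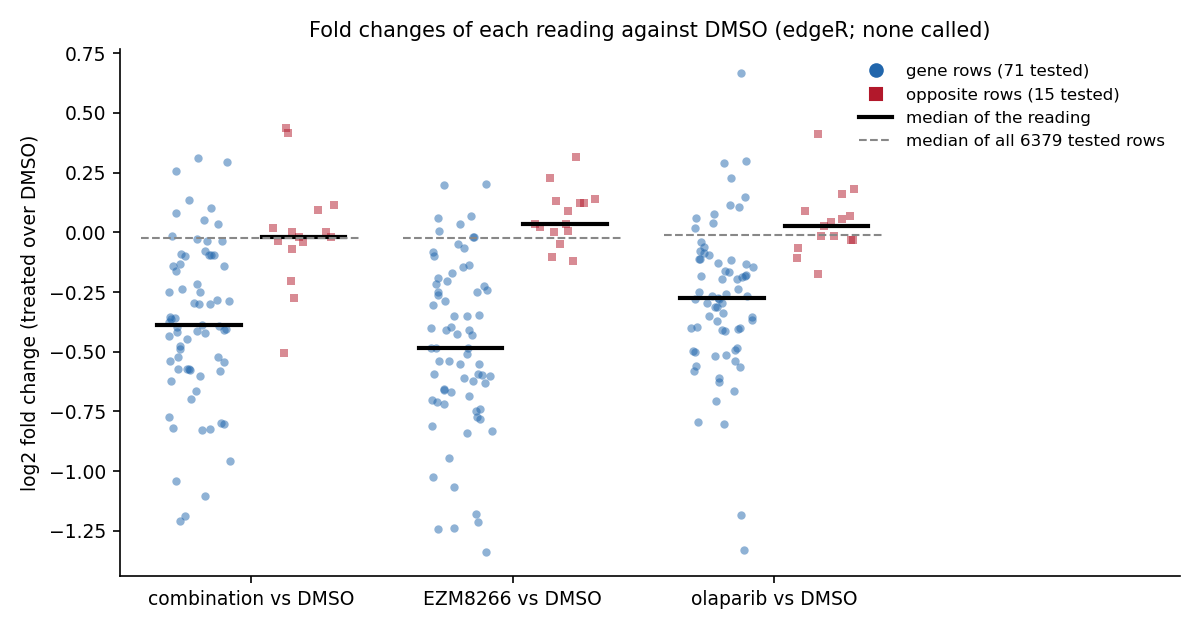
Log2 fold change (vertical axis) of the 71 tested gene rows (blue circles) and the 15 tested opposite rows (red squares), for the combination, EZM8266 and olaparib against DMSO. Black lines are medians of a reading and dashed lines the median of all tested rows; the gene row medians lie at -0.39, -0.48 and -0.27, and no point was called.

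The CPM of the same libraries were also read as groups set apart, which is not independent of the fold changes. The rows share libraries, so they are not independent of one another either. With the combination, 35 of 71 gene rows had both treated libraries below both DMSO libraries, against 18.8% of all tested rows, and 1 had both above, against 17.1%. With EZM8266, 30 of 71 gene rows had both treated libraries below both DMSO libraries, against 15.6%, and 0 had both above, against 16.2%. With olaparib, 21 of 71 gene rows had both treated libraries below both DMSO libraries, against 15.6%, and 2 had both above, against 15.1%. Of the 15 opposite rows, 2, 1 and 2 were lower in this sense and 2, 3 and 3 higher with the combination, EZM8266 and olaparib in this order.

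The lean was seen in gene rows with and without an opposite row. The 55 tested gene rows without one had medians of -0.41 with the combination, -0.55 with EZM8266 and -0.30 with olaparib. The 16 with one had -0.21, -0.29 and -0.19. The difference between them was not tested.

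Among the large subunit gene rows, Rpl23, known also to bind Mdm2, the ubiquitin ligase of p53 (chromosome 11, 97777527 to 97782437), had the smallest adjusted p of any member against DMSO. It had 45.3 and 36.1 CPM with the combination, 18.2 and 13.9 with EZM8266, 26.5 and 28.5 with olaparib, against 25.5 and 49.4 with DMSO. Both EZM8266 values lie below all other libraries. The log2 fold change with EZM8266 was -1.24 ± 0.35 (SE), with an edgeR adjusted p of 0.421, and with the combination it was 0.08 ± 0.32 (SE), with an edgeR adjusted p of 0.997.

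Rpl26 (chromosome 11, 68901583 to 68906989), whose protein also binds p53 messenger RNA, had 93.7 and 57.5 CPM with the combination, 91.5 and 54.7 with EZM8266, 75.8 and 72.4 with olaparib, against 106 and 122 with DMSO. Every treated library was below both DMSO libraries, with log2 fold changes of -0.60 ± 0.25 with the combination, -0.63 ± 0.25 with EZM8266 and -0.63 ± 0.25 with olaparib (SE), and edgeR adjusted p-values of 0.973, 0.810 and 0.999.

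Rpl24 (chromosome 16, 55966275 to 55971435), a bridge between the subunits, had 31.2 and 25.3 CPM with the combination, 43.1 and 21.9 with EZM8266, 36.05 and 39.8 with olaparib, against 42.1 and 56.8 with DMSO. The combination and olaparib values lie below both DMSO values, and EZM8266 overlaps DMSO, and the log2 fold change with the combination was -0.82 ± 0.32 (SE), with an edgeR adjusted p of 0.861. Rpl21 (chromosome 5, 146832890 to 146837032) had 28.2 and 13.6 CPM with the combination, 21.2 and 15.9 with EZM8266, 27.2 and 27.6 with olaparib, against 25.5 and 19.8 with DMSO. It was the gene row of at least 20 CPM in which both olaparib libraries were above both DMSO libraries, and its log2 fold change was 0.30 ± 0.35 (SE), with an edgeR adjusted p of 0.999. Of the remaining large subunit rows named by level, Rpl8, Rpl13, Rpl18 and Rpl32 had log2 fold changes of -0.67 ± 0.32, -0.72 ± 0.29, -0.02 ± 0.23 and -0.40 ± 0.25 with EZM8266 (SE).

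In the small subunit, Rps26 had log2 fold changes of -0.52 ± 0.27 with the combination, -0.74 ± 0.27 with EZM8266 and -0.27 ± 0.26 with olaparib (SE), with edgeR adjusted p-values of 0.973, 0.797 and 0.999. Rps7 (chromosome 12, 28630854 to 28635953) had 34.2 and 20.5 CPM with the combination, 49.9 and 14.9 with EZM8266, 38.3 and 25.2 with olaparib, against 42.1 and 52.5 with DMSO, with the combination and olaparib below DMSO and the lowest of all values with EZM8266. Rps25, with the 2 readings near equal, had log2 fold changes of -0.14 ± 0.18, -0.02 ± 0.18 and 0.11 ± 0.17, in the order combination, EZM8266 and olaparib.

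On the strand of the messenger RNAs, the opposite rows Tlcd1 and Wdr38 differed from DMSO by less than their SE. Tlcd1 had log2 fold changes of -0.02 ± 0.12 with the combination, 0.02 ± 0.12 with EZM8266 and 0.05 ± 0.12 with olaparib (SE), and edgeR adjusted p-values of at least 0.989. Wdr38 had 0.00 ± 0.13, 0.03 ± 0.13 and 0.04 ± 0.13, in the same order. The pooled SD between replicates was 0.09 on the log2 scale for opposite rows and 0.35 for gene rows. As a set, gene rows have lower counts, and the part of this in their wider spread was not tested.

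Sphk2, opposite Rpl18 (chromosome 7, 45709467 to 45718002), had 95.7 and 111 CPM with the combination, 88.5 and 93.5 with EZM8266, 86.8 and 89.4 with olaparib, against 77.4 and 77.8 with DMSO. Every treated library lies above both DMSO libraries, with log2 fold changes of 0.41 ± 0.17 with the combination, 0.23 ± 0.16 with EZM8266 and 0.18 ± 0.16 with olaparib (SE), and edgeR adjusted p-values of 0.960, 0.907 and 0.999. Its exons also overlap those of Dbp, a circadian transcription factor gene on the strand of Rpl18. Lrsam1, opposite Rpl12 (chromosome 2, 32925216 to 32961614), had 49.4 and 42.9 CPM with the combination, 44.6 and 39.8 with EZM8266, 44.1 and 46.4 with olaparib, against 33.3 and 34.6 with DMSO. Here too every treated library lies above both DMSO libraries, with 0.44 ± 0.23, 0.32 ± 0.23 and 0.41 ± 0.22 in the same order, at 34 to 60 counts per library.

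Arpc5l, whose values are given above, had -0.50 ± 0.33 with the combination, -0.12 ± 0.31 with EZM8266 and 0.16 ± 0.30 with olaparib, at 15 to 40 counts per library. D730044K07Rik had 512 and 506 CPM with the combination, 413 and 682 with EZM8266, 568 and 552 with olaparib, against 595 and 577 with DMSO. The combination and olaparib values lie below both DMSO values, and the EZM8266 libraries are the lowest and the highest of all. Cand2, Ube2s, Nkiras1, Fam69a, Tbc1d8 and Ccdc84 had log2 fold changes between -0.11 and 0.14 against DMSO. Clhc1, Vps52 and Gm15420 did not pass the filter on low counts.

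The combination was also set against each single compound. Against olaparib, 0 of 71 gene rows and 0 of 15 opposite rows were called, against 0.0941% of all 6379 tested rows, and at an unadjusted p under 0.05 there was 1 gene row and no opposite row by edgeR, against 3.81%, and no member by DESeq2. 44 of 71 gene rows were below 0, against 51.2%. The gene row median was -0.13, and 0.12 without olaparib replicate 1, -0.28 without olaparib replicate 2, -0.28 when combination replicate 1 was left out, 0.05 when combination replicate 2 was, and -0.28 without the libraries rich in Gm10800. There were 12 of 71 gene rows lower without overlap, against 16.1% of all tested rows, and 5 higher, against 15.9%. Against EZM8266, 0 of 71 gene rows and 0 of 15 opposite rows were called, against 0% of all 6379 tested rows, with 1 gene row at an unadjusted p under 0.05 by edgeR, against 1.54%, and 1 by DESeq2, which called none. 28 of 71 gene rows were below 0, against 50.6%. The gene row median was 0.08, and 0.56 without EZM8266 replicate 1, -0.24 without EZM8266 replicate 2, -0.12 when combination replicate 1 was left out and 0.22 without combination replicate 2. There were 7 of 71 lower without overlap, against 11.7%, and 10 higher, against 12.2%. The gene row at an unadjusted p under 0.05 was Rpl23, with a log2 fold change of 1.32 ± 0.36 (SE), with an edgeR adjusted p of 1.00. Members at an unadjusted p under 0.05 by edgeR were 13 without EZM8266 replicate 1, 4 without EZM8266 replicate 2, and 2 with combination replicate 1 or either olaparib library left out. Against olaparib they were 3 with olaparib replicate 2, combination replicate 1 or either EZM8266 library left out, 0 with combination replicate 2 left out and 2 without the libraries rich in Gm10800.

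All 4 libraries with EZM8266 were set against the 4 without it. Here 0 of 71 gene rows and 0 of 15 opposite rows were called, against 0.658% of all 6379 tested rows, while 10 gene rows and 0 opposite rows had an unadjusted p under 0.05, against 6.77% of all tested rows. DESeq2 called none, with 3 members at an unadjusted p under 0.05. The edgeR count of 10 became 35 without EZM8266 replicate 1, 3 without EZM8266 replicate 2, 2 without combination replicate 2, 1 without olaparib replicate 1, 2 without DMSO replicate 2 and 18 without the libraries rich in Gm10800. The gene rows below 0 were 62 of 71, against 52.6%. The gene row median was -0.30 and the opposite row median 0.00. The gene row median was -0.52 without EZM8266 replicate 1, -0.15 without EZM8266 replicate 2, -0.14 without olaparib replicate 1, -0.19 without combination replicate 2 and -0.48 without the libraries rich in Gm10800. With 4 against 4 libraries, 3 of 71 gene rows were lower without overlap, against 2.02% of all tested rows, and 0 were higher, against 3.32%. Arpc5l was the opposite row without overlap, with a log2 fold change of -0.39 ± 0.22 (SE), with an edgeR adjusted p of 0.855. Rps26 had -0.50 ± 0.19 (SE), with an edgeR adjusted p of 0.602.

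Other genes of translation were read in the same way, from lists chosen with earlier results known. edgeR called none of their tested rows in any of the 6 comparisons, in either reading. Among other proteins of the ribosome, 7 of 7 tested gene rows were below 0 with EZM8266, with a median of -0.29, and Rplp0, the base of the ribosome stalk, had 70.1 ± 25.3 CPM (SD, n = 8). Among translation factors, 25 of 29 gene rows were below 0 with the combination, 25 of 29 with EZM8266 and 24 of 29 with olaparib, with medians of -0.31, -0.27 and -0.25. Eef1a1, the elongation factor that delivers transfer RNA, had 303 ± 79.8 CPM, and Pabpc1, the poly(A)-binding protein, 92.1 ± 24.2 CPM.

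The lean was not seen in the gene rows of mitochondrial ribosomal proteins, which are made in the cytosol for the ribosomes of mitochondria. Only 23 of their 83 rows passed the filter on low counts, against 71 of 82 ribosomal protein gene rows. Of the 23 tested, 7 were below 0 with EZM8266 and 6 with the combination, with medians of 0.09 and 0.14. Mrps25, with the most counts, had 1348 ± 102 CPM. For ribosome assembly factors, 13 of 20 gene rows were below 0 with EZM8266, with a median of -0.17, and Bysl, a small subunit assembly factor, had 256 ± 7.15 CPM. In the 5 tested pseudogene rows (-ps) all were above 0 with EZM8266, with a median of 0.59. The opposite rows of these lists had medians with EZM8266 of 0.03 for translation factors, -0.01 for assembly factors and 0.04 for mitochondrial ribosomal proteins. The row opposite Eif3d, a subunit of an initiation factor, had the most counts of them, with 2689 ± 138 CPM (Gm17638). The differences between lists were not tested.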

How the data were processed

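RNA of 8 libraries was sequenced in pairs after ribosomal RNA depletion with a stranded kit, per the labels' protocols. The table holds raw fragment counts per gene as deposited. Per the file headers, the authors made these counts with featureCounts 1.6.2 on exons of GENCODE M18, for paired reads with strand setting 1, counting a fragment for every gene it overlapped. HISAT2 2.1.0 and the genome build mm10 are named in the submitters' processing notes. The options of the alignment are not given in the sources used here.

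Row names came from GENCODE M21, which left 67 of 54146 rows unnamed, as did the principal transcripts. Overlaps came from the exons given with the counts, which are those of GENCODE M18. All 8 libraries were fitted with edgeR 4.0.16 in R 4.3.3 (quasi-likelihood test, TMM scaling, 4 group means) after a filter on low counts (minimum count 10, minimum total 15). The p-values were adjusted over all 6379 rows that passed. The script was tested on simulated data. DESeq2 1.42.0, other scalings, filters, members and left-out libraries were the alternatives. Library depth is given with the results. TMM-scaled CPM are used for single rows, and unscaled totals for shares and markers.

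The members and lists were chosen with earlier results of these data known, so no p is given for sums over members and none for gene lists. The rows named were, in each reading, the 12 with the highest mean CPM, and those of at least 20 CPM with up to 3 largest fold changes in each direction against DMSO whose libraries do not overlap, with their partner rows, and Rpl23a and Tlcd1. From the other lists, up to 4 rows with the highest mean CPM could be named. Some rows that the rule names are not reported here. Replicate numbers were not taken as pairs. Wilson intervals are at the 95% level.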

Additional observations from a re-analysis of the deposited data

Results flagged for a closer look

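In the 4 libraries without EZM8266, the Rpl23 gene row had 26.5 and 28.5 CPM with olaparib and 25.5 and 49.4 CPM with DMSO. DMSO replicate 2 lay far from the other libraries, with a gap to the nearest of 0.875 of the whole range, above the 95% critical value of Dixon's ratio for 4 samples. In the same 4 libraries the Arpc5l opposite row had 24.3 and 30.9 CPM with olaparib and 24.5 and 24.7 CPM with DMSO. Olaparib replicate 2 lay far from the others, with a gap of 0.936 of the range. These were 2 of 70 sets examined, and chance gives about 1 in 20.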

How the results depend on the processing

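No member was called in any of the 6 comparisons when 1 library was left out at a time (0 to 0), with DESeq2, other scaling or filters, other overlap minimums, or without the libraries rich in Gm10800 (an alternative added after seeing the data). A fit of only the groups compared also called 0 members, and was not made for the 4 libraries against 4. With the replicate number as a replicate block the count was 0 as well, with 15, 10, 0, 5, 0 and 39 called rows among all tested rows in the order combination, EZM8266 and olaparib against DMSO, combination against olaparib and against EZM8266, and with against without EZM8266. Whether the numbers pair the libraries is not settled by the deviations of same-numbered libraries. These correlated between -0.32 and -0.15 in pairs of groups with DMSO, and between 0.22 and 0.30 in pairs without it. With the DMSO numbers crossed, a block added after seeing the data, 4 members were called with EZM8266 against DMSO and 1 with against without EZM8266, among 73, 84, 1, 47, 3 and 133 called rows in the same order. The percent of counts in gene rows differed by -0.0357 percentage points with minus without EZM8266 (-0.0543 to -0.0136 with 1 library left out), that in opposite rows by 0.0964 (-0.0116 to 0.180, and -0.0331 of the TMM-scaled library size), and the gene row share of both readings by -0.261 (-0.506 to 0.00192). Without the 3 opposite rows with the most counts, also chosen after seeing the data, the last difference was -1.34. The share itself was then higher, with means of 15.7% with and 17.1% without EZM8266, against 3.24% and 3.51% with all opposite rows. The causes were not tested. Among named rows, 78 of 1488 values under an alternative had the other sign. At this depth gene rows had a median SE of 0.39 on the log2 scale, which limits what can be called.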
